A study of Mus musculus with 6 samples.

Results

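The genes described here are 10 transcription factors of the cardiac lineage, the T-box factors Tbx20, Tbx18 and Tbx5, the GATA factors Gata4 and Gata6, the basic helix-loop-helix (bHLH) factors Hand2 and Tcf21, the zinc finger factor Wt1, the MADS-box factor Mef2c and the homeobox factor Meox1. They were picked by gene symbol from a table of 22063 genes, and all 10 were found. The set was chosen on the values of this same comparison, so the differences of these genes between the groups are given as a description. No p-value of a member is printed, counts of members past a threshold only describe them, and nothing is supported with them. The lists of related genes and markers used below were also chosen with earlier results of these data known. Their counts and adjusted p-values are descriptions as well.

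RNA was sequenced from mouse heart fibroblasts whose Tet3 alleles were floxed, that is, flanked by loxP sites that Cre recombinase cuts. Cells of the control genotype had received an adenovirus coding for green fluorescent protein (GFP, 3 libraries), and those labelled as Tet3 knockout an adenovirus coding for Cre (CRE, 3 libraries). All 6 libraries came from cells given TGF-β, under which fibroblasts take on contractile fibres and lay down matrix. The comparison therefore asks about Tet3 in activated cells, and untreated cells were not analysed here. The virus reached a whole culture rather than 1 cell type, and the labels do not say whether replicates were separate cultures or animals, so that p-values measure only the spread between these libraries.

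As background, GATA, T-box, Hand and Mef2 proteins bind DNA together and on neighbouring sites to set up the gene programme of the heart in the embryo. Wt1, Tbx18 and Tcf21 mark the epicardium, the outer cell layer of the heart, and the mesenchymal cells that leave it, many of which become cardiac fibroblasts. Adult cardiac fibroblasts keep Tbx20, Gata4, Gata6, Hand2 and Tcf21 switched on and lack the contractile genes of cardiomyocytes. TET3 is an enzyme that oxidises 5-methylcytosine, a mark found mostly at CpG dinucleotides, and DNA methylation was not measured in these libraries.

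Total counts were between 17002126 and 20343590 per library, at which 3 counts correspond to 0.156 to 0.187 CPM (counts scaled to an effective library size). Of all genes, 12862 had enough counts to be tested. Tet3 itself had 1044, 965 and 1000 counts in GFP libraries and 642, 649 and 637 in CRE libraries, a log2 fold change of -0.72 (SE 0.08, edgeR adjusted p of 5.36e-05), and the count covers the whole gene, floxed or not. Libraries of 1 group correlated at r between 0.989 and 0.993 across genes. The cells carried the defining genes of cardiac fibroblasts, with Col1a1 and Col1a2, the chains of type I collagen, at 13729 ± 443 and 11568 ± 258 CPM (SD, n = 3) in GFP libraries. Of 15 cardiomyocyte markers, 13 had at most 10 counts in any library and Myh6, Myl3 and Myl7 had none, and their summed level was 1.30 to 1.87 CPM in GFP and 2.38 to 2.82 CPM in CRE libraries.

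All 10 factors passed the filter on low counts. In CRE libraries 9 of them were lower at an edgeR adjusted p under 0.05, against 25.7% of all tested genes lower at that threshold. For the same 9, every CRE library lay below every GFP library, as it did for 29.6% of all tested genes. At the threshold of the study's methods (a ratio under 0.66 or above 1.5 at an unadjusted p under 0.05) 8 were lower, against 10.3% of tested genes. Gata6 was the factor that passed the first threshold and missed the second. Mef2c passed neither. No member was among the 25.5% of tested genes that were higher. The median log2 fold change of the 10 was -1.02, that of the 1070 other tested rows with a transcription factor family was -0.04, and that of all tested genes was 0.01. Since the members were chosen on these values, nothing is read from their share against these backgrounds.

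Promoter sequence is shown for the members with an entry in the promoter table of RefSeq (GRCm38.p6), which were 5 of the 10. Each CpG is marked because 5-methylcytosine lies mostly at CpG. Whether CpG content goes with the change of a member was not tested. Whether any of these CpG was methylated was not measured. Each line holds the bases before the annotated start that lie outside annotated exons, 5′ to 3′ on the strand of the gene, with each CpG in capitals. They lie at chr9:24774304-24774553 on the minus strand (Tbx20), chr9:87731261-87731510 on the minus strand (Tbx18), chr8:57320733-57320982 on the plus strand (Hand2), chr10:22820175-22820393 on the minus strand (Tcf21) and chr13:83503784-83504033 on the plus strand (Mef2c, the outermost of 3 starts).
Tbx20: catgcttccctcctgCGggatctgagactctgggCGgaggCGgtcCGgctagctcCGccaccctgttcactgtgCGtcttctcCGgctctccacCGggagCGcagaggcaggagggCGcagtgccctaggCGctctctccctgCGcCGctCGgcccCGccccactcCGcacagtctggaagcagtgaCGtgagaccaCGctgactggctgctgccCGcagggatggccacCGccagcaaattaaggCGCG
Tbx18: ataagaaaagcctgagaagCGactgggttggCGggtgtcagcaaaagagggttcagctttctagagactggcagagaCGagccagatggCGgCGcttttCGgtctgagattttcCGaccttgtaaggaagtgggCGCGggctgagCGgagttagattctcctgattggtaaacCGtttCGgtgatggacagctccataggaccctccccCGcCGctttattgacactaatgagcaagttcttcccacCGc
Hand2: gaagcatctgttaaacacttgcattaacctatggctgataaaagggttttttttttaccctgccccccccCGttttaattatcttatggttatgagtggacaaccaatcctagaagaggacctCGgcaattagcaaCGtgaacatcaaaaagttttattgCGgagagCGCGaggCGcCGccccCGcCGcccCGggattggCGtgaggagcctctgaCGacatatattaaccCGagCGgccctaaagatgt
Tcf21: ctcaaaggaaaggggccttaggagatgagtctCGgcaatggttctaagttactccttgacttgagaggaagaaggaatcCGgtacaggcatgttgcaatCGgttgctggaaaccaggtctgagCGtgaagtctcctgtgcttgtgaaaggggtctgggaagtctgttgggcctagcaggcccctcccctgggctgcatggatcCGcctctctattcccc
Mef2c: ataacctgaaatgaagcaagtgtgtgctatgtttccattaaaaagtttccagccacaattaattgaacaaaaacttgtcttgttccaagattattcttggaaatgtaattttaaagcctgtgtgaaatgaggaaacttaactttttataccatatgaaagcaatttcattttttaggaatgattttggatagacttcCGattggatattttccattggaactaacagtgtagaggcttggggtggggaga

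Of these windows that of Tbx20 was the richest in CpG. Counted over 250 bases before to 50 after the start, the Tbx20 window held 26 CpG at a GC content of 68.3%, more CpG than 83.1% of the 32851 promoters in the table. Hand2 held 17, Tbx18 15 and Tcf21 8, against a median of 7 over all promoters, with quartiles of 3 and 20. The 3 starts of Mef2c held 1, 10 and 4, and the start printed above is the one with 1. Both strands were also searched for the letters of 3 motifs. The E-box of bHLH factors was searched as CANNTG. For GATA factors the letters were AGATAA. The T-box motif was searched as AGGTGT, whose letters can overlap an E-box. E-box letters occurred at 2 places in Hand2 and 1 in Tbx18, and GATA letters at 1 place each in Hand2 and Tcf21. At Mef2c the first start had 2 E-boxes, the second 1 T-box motif and the third 1 E-box. The Tbx20 window held none of the 3. Over all promoters of this length, 72.3% held an E-box, 11.2% the GATA letters and 13.7% the T-box letters, so that these matches are descriptions only.

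Tbx20 is a T-box repressor and activator needed for chamber formation in the embryonic heart, and it is encoded at chr9:24718138-24774303 on the minus strand (GRCm38, ENSMUSG00000031965). Its levels were 362, 424 and 409.8 CPM in GFP replicates 1, 2 and 3 and 111, 105 and 104 CPM in CRE replicates 1, 2 and 3. The CRE libraries lay within a few CPM of each other and far below the lowest GFP library, and the lowest of the GFP values was that of replicate 1. The group means were 399 ± 32.6 and 107 ± 3.55 CPM (SD, n = 3), which left 26.8% of the GFP level. On the log2 scale the change was -1.90 (SE 0.06). Among all tested genes 113 had a change as low or lower, and among the 1080 tested rows with a transcription factor family only 7 did, Tbx20 included. The value rested on 1901 to 7888 counts per library, the most of any member.

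Tbx18, a repressor of the epicardium and the sinus node, lies on the same chromosome at chr9:87702800-87731260. It had 73.9, 77.5 and 76.7 CPM in GFP libraries and 41.1, 41.8 and 43.2 CPM in CRE libraries, 55.3% of the GFP mean and a log2 fold change of -0.85 (SE 0.05). Replicates were close in both groups, and no value of one group came near the other. Tbx5, an activator of chamber genes at chr5:119832668-119885219, was the rarer gene, at 1.57 against 15.4 FPKM (fragments scaled to transcript length and library size) in GFP libraries. It had 4.97, 4.28 and 4.42 CPM against 1.93, 2.82 and 3.17 CPM, a log2 fold change of -0.78 (SE 0.20). Here the CRE libraries were spread more widely than the GFP libraries, on 36 to 85 counts, although the groups did not overlap. In FPKM the Tbx5 values also stayed apart, but by less, with GFP values from 1.42 and CRE values up to 1.37.

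Within the T-box family the balance between members moved with the group. Per length, Tbx20 stood at 2.77 ± 0.13 times the FPKM of Tbx18 in GFP libraries and at 1.31 ± 0.07 times in CRE libraries (SD, n = 3). The size of this ratio depended on the length used. Per kilobase of all annotated exons, Tbx20 and Tbx18 were at 33.2 and 16.1 CPM in GFP and at 8.89 and 8.91 CPM in CRE libraries. Of the summed FPKM of all 17 T-box rows in the table, Tbx20 took 58.0% ± 1.52 in GFP and 31.6% ± 1.06 in CRE libraries. The share of Mga, a T-box and bHLH protein of a repressor complex, was between 14.8% and 34.5% over the 6 libraries. None of the 5 other tested T-box genes, Mga, Tbx2, Tbx3, Tbx4 and Tbx15, passed an adjusted p of 0.05 in edgeR, DESeq2 or limma-voom, and 0 of them had an unadjusted p under 0.05 in edgeR. Their adjusted p lay between 0.174 (Tbx2) and 0.651 (Tbx3), and Mga was at 146 ± 5.23 CPM in GFP and 152 ± 1.49 CPM in CRE libraries. With library size alone as the scaling, and on either set of log2 FPKM values, 1 of the 5 passed as higher. In FPKM, Mga was at 11.4 ± 0.24 in GFP and 13.3 ± 0.20 in CRE libraries, and the groups did not overlap. The other 9 listed T-box genes had at most 10 counts in any library and were not tested.

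Gata4 and Gata6 encode zinc finger activators that bind the same GATA letters and can stand in for each other in the heart. Gata4, at chr14:63198922-63271692 on the minus strand, had 68.1, 67.4 and 67.0 CPM in GFP and 43.4, 46.2 and 42.6 CPM in CRE libraries. Gata6, on chromosome 18, had 66.1, 64.9 and 67.8 CPM in GFP and 44.8, 44.5 and 49.8 CPM in CRE libraries. The 2 genes were alike in that no CRE library reached a GFP library and the difference was of similar size. Their CRE means were 65.3% and 70.0% of the GFP means, log2 fold changes of -0.61 (SE 0.05) and -0.51 (SE 0.06). Per length, the ratio of Gata4 to Gata6 was 1.15 ± 0.05 in GFP and 1.07 ± 0.15 in CRE libraries (FPKM, SD, n = 3), and the library values of the groups overlapped. Its size depended on the length used. Per kilobase of all annotated exons, Gata4 and Gata6 were at 17.3 and 10.2 CPM in GFP and at 11.3 and 7.13 CPM in CRE libraries.

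The 4 tested relatives on the list of other GATA factors and their FOG cofactors split between directions. Zfpm2, the FOG cofactor that binds GATA4 in the heart, went from 74.1 ± 2.46 to 61.6 ± 5.02 CPM, a log2 fold change of -0.27 (SE 0.06, edgeR adjusted p of 0.00523). Gata3, a factor of lymphocytes and epithelia, was lower too, at -0.67 (SE 0.19, adjusted p of 0.0149). The higher genes were Zfpm1, the FOG cofactor of blood cells, at 0.35 (SE 0.09, adjusted p of 0.00620), and Gata2, a factor of blood and endothelial cells, at 0.31 (SE 0.11, adjusted p of 0.0375). Only Zfpm1 kept its call in all 16 other fits. Zfpm2 lost its call with library size alone (adjusted p of 0.174) and on log2(FPKM + 1) and log2(FPKM + 0.1) values, where the change was -0.10 in both (adjusted p of 0.253 and 0.249). Gata2 lost its call in 8 fits, without GFP replicate 1 or 3 or CRE replicate 1 or 3 (adjusted p between 0.0803 and 0.127), in DESeq2, on both sets of log2 FPKM values and with the replicate block (adjusted p between 0.0520 and 0.0741). Gata3 lost its call without GFP replicate 3 (adjusted p of 0.0578) or CRE replicate 3 (adjusted p of 0.0562) and on log2(FPKM + 0.1) values (adjusted p of 0.0520).

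Hand2 and Tcf21 are bHLH factors that pair with the widely expressed E proteins Tcf3, Tcf4 and Tcf12. Hand2, needed for the right ventricle and the outflow tract, lies at chr8:57320983-57324633 on the plus strand. It had 31.5, 34.6 and 31.5 CPM in GFP and 13.4, 12.4 and 16.7 CPM in CRE libraries. CRE replicate 3 was the highest of its group and still below the lowest GFP library by a wide margin. The level in CRE libraries was 43.6% of that in GFP libraries, a log2 fold change of -1.20 (SE 0.10).

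Tcf21, a factor without which the heart forms few fibroblasts, lies at chr10:22817281-22820174 on the minus strand. Its values of 37.2, 32.6 and 38.5 CPM in GFP and 11.2, 10.4 and 9.50 CPM in CRE libraries did not overlap, with 28.7% of the level left. The log2 fold change was -1.80 (SE 0.09), and 142 of the tested genes were as low or lower.

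Of the 9 tested bHLH partners and inhibitors on the list, 6 were lower and the other three did not pass. With library size alone, on either set of log2 FPKM values, and without GFP replicate 3, 1 of the 9 passed as higher beside 6 lower. All E proteins were among the lower genes, Tcf4 with a log2 fold change of -0.98 (SE 0.05, edgeR adjusted p of 2.59e-07), Tcf3 with -0.62 (SE 0.06, adjusted p of 1.91e-05) and Tcf12 with -0.36 (SE 0.04, adjusted p of 6.08e-05). Of the Id proteins, which hold E proteins away from DNA, Id3 went from 104 ± 13.1 to 46.1 ± 4.13 CPM, a log2 change of -1.18 (SE 0.09, adjusted p of 5.41e-06), and Id1 was at -0.51 (SE 0.11, adjusted p of 0.00373). Twist2, a mesenchymal bHLH repressor, was at -0.51 (SE 0.11, adjusted p of 0.00351), while its relative Twist1 did not pass (0.16, SE 0.10, adjusted p of 0.208).

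Wt1 had the lowest fold change of the set and 1 of its lowest levels. This zinc finger factor of the epicardium, encoded at chr2:105126529-105173616 on the plus strand, had 57, 65 and 68 counts in GFP libraries and 15, 15 and 16 counts in CRE libraries. In normalized terms these were 3.54, 3.66 and 3.53 CPM against 0.81, 0.83 and 0.84 CPM. Values within each group were nearly equal, and 23.1% of the level was left. The log2 fold change was -2.10 (SE 0.21), the fourth lowest of the transcription factor rows, with 79 of all tested genes as low or lower. On log2(FPKM + 1) values, where the added 1 weighs on so low a gene, the change was -0.90.

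The listed epicardial markers were lower in some cases and higher in others. Of the 9 tested, 2 were lower, Aldh1a1 at -0.69 (SE 0.09, edgeR adjusted p of 9.74e-05) and Gpm6a at -2.11 (SE 0.19, adjusted p of 1.05e-05). The 4 that were higher were the mesothelial and keratin genes Upk3b, Upk1b, Krt18 and Krt19, with log2 fold changes between 0.75 and 1.79, each with fewer than 5 CPM in either group. Upk3b overlapped between the groups and lost its call in limma-voom, and 3 rather than 4 were higher without GFP replicate 2 or 3 or CRE replicate 1 or 2, and 1 of 6 tested with at least 10 counts required in every library. Sema3d, a guidance signal, did not pass (-0.24, SE 0.10, adjusted p of 0.0621). With the replicate block, without GFP replicate 2 and without CRE replicate 1 the count of lower markers was 3. The summed level of the list went from between 93.0 and 99.9 CPM to between 65.9 and 78.3 CPM. Apart from Aldh1a1 and Sema3d, the 2 genes of the list with the highest CPM, these genes were named after their values were seen.

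Mef2c was the member that did not differ past the threshold. It encodes a MADS-box activator of muscle genes at chr13:83504034-83667080 on the plus strand, and had 5.97, 7.67 and 7.85 CPM in GFP and 5.96, 6.26 and 6.92 CPM in CRE libraries. The lowest value of the GFP group, again replicate 1, lay level with the lowest of the CRE group. The means were 7.16 ± 1.04 and 6.38 ± 0.49 CPM (SD, n = 3), and the log2 fold change was -0.17 (SE 0.14). In FPKM the direction turned, with 1.91 ± 0.26 in GFP and 2.34 ± 0.54 in CRE libraries, overlapping again.

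Of the 7 tested relatives and regulators of MEF2, all passed, in both directions. Mef2d was lower, with a log2 change of -0.45 (SE 0.05, edgeR adjusted p of 6.52e-05), and Mef2a was higher, at 0.15 (SE 0.05, adjusted p of 0.0213). Of the class IIa histone deacetylases, which bind MEF2 and repress its targets, Hdac9 was at -1.42 (SE 0.32, adjusted p of 0.00404) on 9 to 42 counts and Hdac4 at -0.27 (SE 0.07, adjusted p of 0.0113). Hdac5 was at 0.22 (SE 0.07, adjusted p of 0.0235). Hdac7 was at -0.14 (SE 0.05, adjusted p of 0.0436), and with library size alone its direction turned to 0.02 (adjusted p of 0.764). Mapk7, the kinase ERK5 that phosphorylates MEF2, was at -0.41 (SE 0.08, adjusted p of 0.00258). Leaving out 1 library ended the call of Mef2a (GFP replicate 2 or 3 or CRE replicate 1, adjusted p between 0.0640 and 0.0788) and of Hdac5 (GFP replicate 2 or 3 or CRE replicate 1 or 2, adjusted p between 0.0628 and 0.0895). That of Hdac7 ended without GFP replicate 1 or 2 or CRE replicate 1 or 2 (adjusted p between 0.0909 and 0.166), and that of Hdac4 with library size alone (adjusted p of 0.234). On both sets of log2 FPKM values the calls of Hdac4 and Hdac7 ended, which left 3 lower and 2 higher, and with upper-quartile scaling or the replicate block that of Hdac7 did. In all, Hdac7 kept direction and call in 6 of 16 other fits.

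Meox1, a homeobox factor of the somites that is also induced in activated fibroblasts, lies at chr11:101877510-101894374 on the minus strand. It had 6.16, 4.40 and 4.78 CPM in GFP and 2.36, 2.22 and 1.32 CPM in CRE libraries. The highest GFP value was that of replicate 1 and the lowest CRE value that of replicate 3, and the groups did not overlap. That left 38.5% of the GFP level, a log2 fold change of -1.37 (SE 0.23), the largest error of the 10.

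Its close relative Meox2 was lower as well, with a log2 fold change of -1.25 (SE 0.31, edgeR adjusted p of 0.00634). Prrx1, a homeobox factor of mesenchyme and fibroblasts, went from 381 ± 41.9 to 167 ± 11.8 CPM, a log2 change of -1.19 (SE 0.08, adjusted p of 1.93e-06). Shox2, a factor of the sinus node, was at -0.32 (SE 0.10, adjusted p of 0.0209), and its call ended without GFP replicate 1 or 2 or CRE replicate 2, with an adjusted p between 0.0521 and 0.0696, with library size alone (adjusted p of 0.192), and on log2(FPKM + 1) and log2(FPKM + 0.1) values (-0.02 and -0.03, adjusted p of 0.855 and 0.854). The other 5 of the 8 tested homeobox genes did not pass. The cardiac factors Nkx2-5 and Isl1 had at most 12 and 7 counts in any library and were not tested. With no filter beyond 1 count 15 homeobox genes were tested and 4 were lower, the added one being Nkx2-5, which had 6, 12 and 6 counts in GFP and 1, 3 and 2 counts in CRE libraries.

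**Figure D1:**
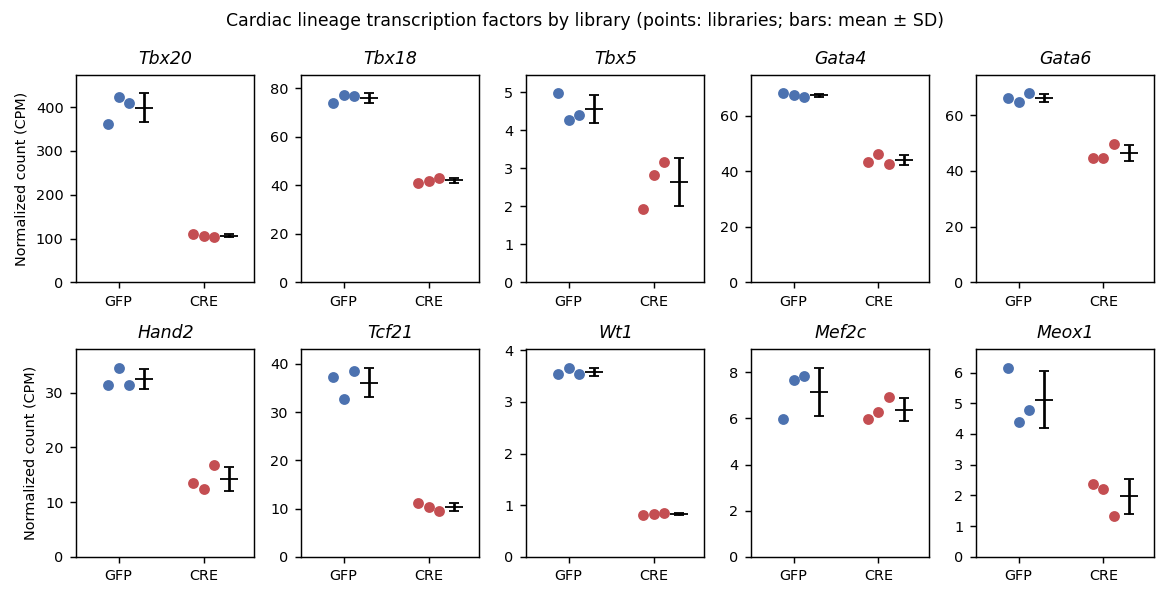
Normalized counts (CPM, linear axes from 0) of the 10 factors in each of the 3 GFP and 3 CRE libraries, with points for libraries and bars for mean ± SD. The groups are separate for every gene except Mef2c, and Tbx20 goes from 399 to 107 CPM.

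The 10 genes summed to between 659 and 721 CPM in GFP libraries and between 273 and 278 CPM in CRE libraries. As a share of counts, not per length, Tbx20 made up 54.9% to 58.8% of that sum in GFP libraries and 37.4% to 40.2% in CRE libraries. Without Tbx20 the sum was between 297 and 302 CPM in GFP and between 165 and 174 CPM in CRE libraries, so that the sum of the other 9 genes was lower too. By size of difference the set divided into a group with less than 50% of the GFP level, Wt1, Tbx20, Tcf21, Meox1 and Hand2, and a group with more, Tbx18, Tbx5, Gata4, Gata6 and Mef2c.

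**Figure D2:**
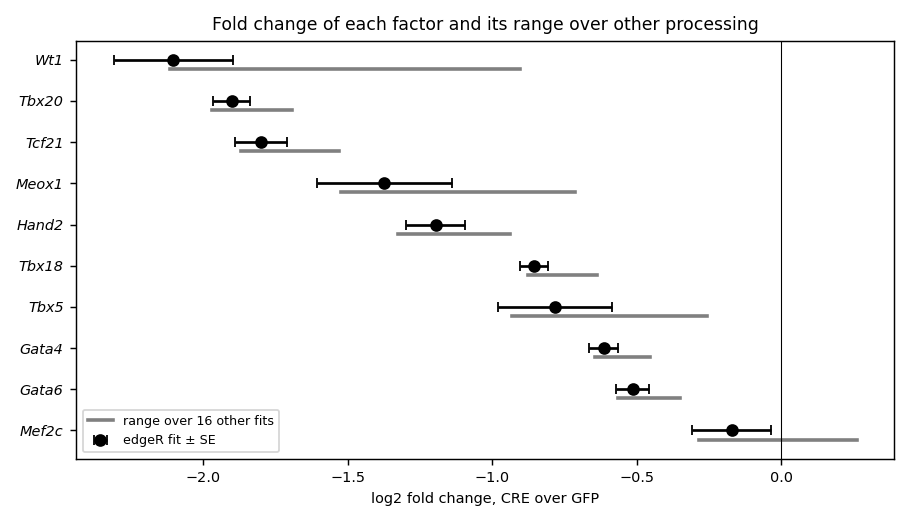
Log2 fold change of each factor, CRE over GFP, with points for the edgeR fit on counts, black bars for its SE, and grey bars for the range over 16 other fits. Wt1 is lowest at -2.10, the ranges of 9 genes stay below 0, and that of Mef2c runs from -0.28 to 0.26.

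Levels were compared between genes in FPKM, which is per length. In GFP libraries Tbx20 led with 42.6 ± 3.01 FPKM (SD, n = 3), followed by Tcf21 (26.7 ± 2.28), Gata4 (22.9 ± 0.37), Gata6 (19.99 ± 0.60), Tbx18 (15.4 ± 0.40) and Hand2 (13.1 ± 0.72). The library values of neighbours in this order did not overlap. The remaining genes were much rarer, Meox1 at 2.17 ± 0.39, Mef2c at 1.91 ± 0.26, Wt1 at 1.66 ± 0.13 and Tbx5 at 1.57 ± 0.13 FPKM, and no neighbours among them differed beyond their spread.

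In CRE libraries the order at the top changed. Gata4 (16.5 ± 1.70 FPKM) and Gata6 (15.4 ± 0.78) overlapped and stood above Tbx20 (12.4 ± 0.35), which was followed by Tbx18 (9.50 ± 0.27) and Tcf21 (8.60 ± 0.67), again overlapping, and by Hand2 (6.37 ± 1.002). Mef2c (2.34 ± 0.54) stood above Tbx5 (1.15 ± 0.19) and Meox1 (0.93 ± 0.27), which overlapped, and Wt1 was last at 0.42 ± 0.06 FPKM. Ranked among the 1080 tested rows with a transcription factor family, Tbx20 was at place 52 in GFP and place 268 in CRE libraries, Tcf21 at 99 and 378, Hand2 at 238 and 471, Gata4 at 130 and 192, and Gata6 at 146 and 206. The order within a group depended on the length used. With CPM per kilobase of all annotated exons in place of FPKM, 3 of the 10 genes kept their place in GFP libraries, Tbx20 among them at the top, and in CRE libraries Gata4 was first, with Tbx18 at 8.91 and Tbx20 at 8.89, and Gata6, at 7.13, lay below Tbx20 rather than above it.

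**Figure D3:**
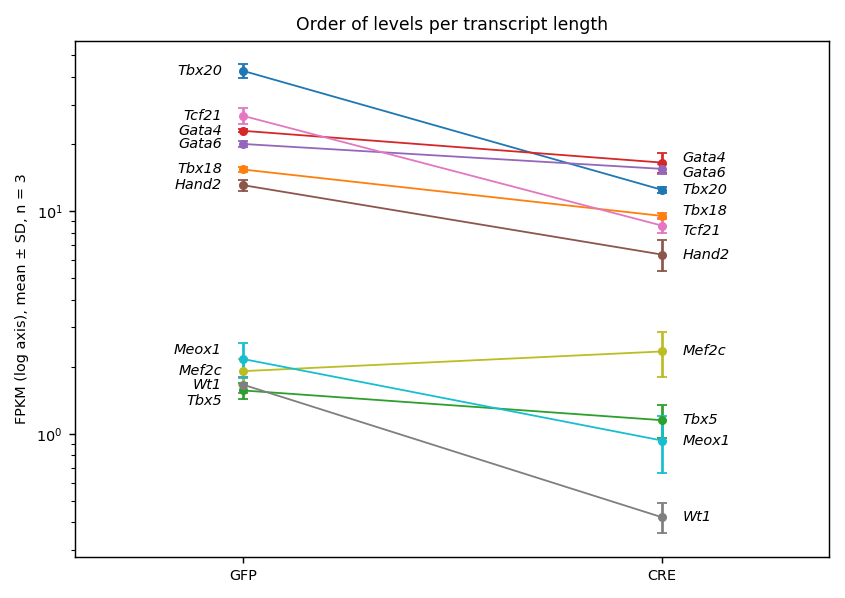
Mean level of each factor in FPKM (log axis) in GFP and CRE libraries, with bars for SD over 3 libraries and lines joining the same gene. Tbx20 is first in GFP libraries at 42.6 FPKM and in CRE libraries, at 12.4 FPKM, lies below Gata4 and Gata6, although per kilobase of all annotated exons Gata6 lies below Tbx20.

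The genes whose level followed that of Tbx20 most closely across the 6 libraries were Nfia (r = 0.9997 on log2 CPM), Nfix (0.9996), Cilk1 (0.9991), Septin11 (0.9989) and B3gnt9 (0.9986). Nfia and Nfix encode transcription factors of the nuclear factor I family, and their means went from 83.4 to 34.3 CPM and from 214 to 122 CPM. With groups of 3 such an r mostly restates the difference between the groups, and 2360 genes had an r over 0.9. Among the members, Wt1 (0.997), Tbx18 (0.997) and Tcf21 (0.990) were nearest to Tbx20, and Mef2c (0.534) was farthest.

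**Figure D4:**
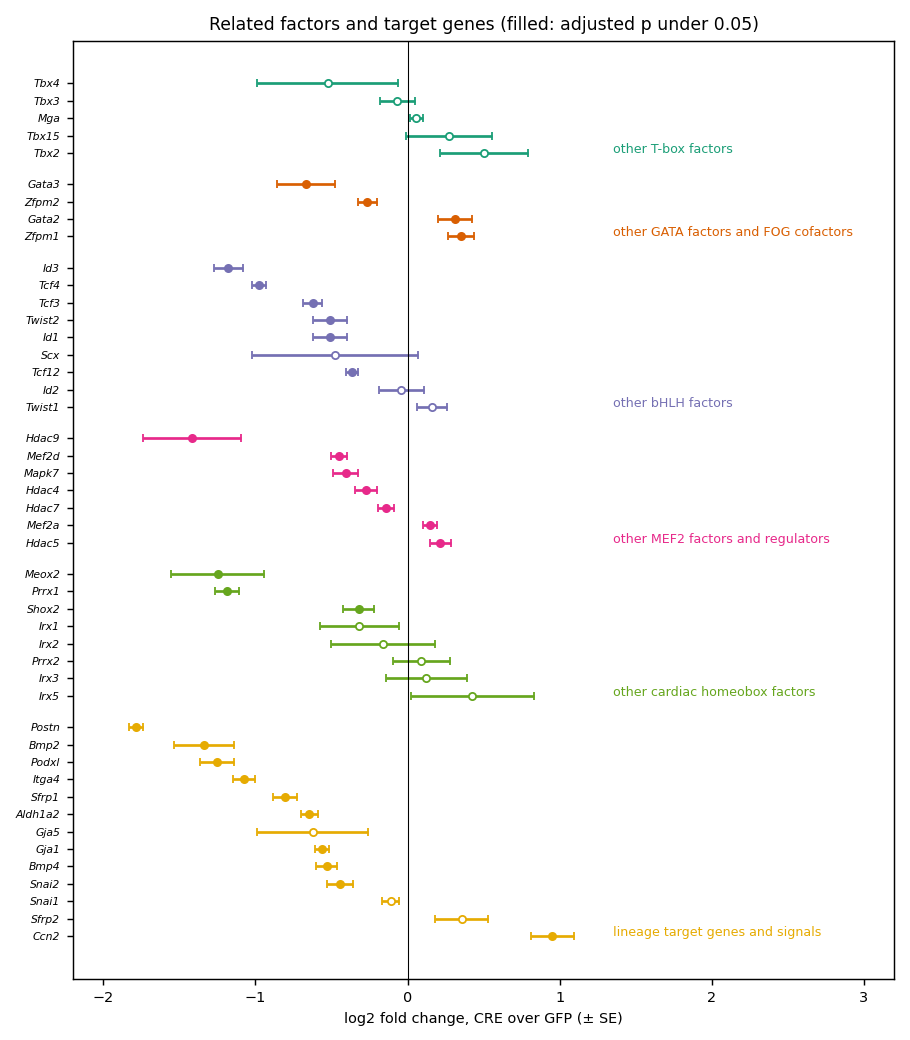
Log2 fold change (± SE), CRE over GFP, of the tested genes on the lists of other cardiac lineage factors and of target genes, with filled points for an edgeR adjusted p under 0.05. The 5 other T-box factors are all open, 6 of 9 bHLH genes are filled on the lower side, and Nppb is left out because its GFP libraries held 1 to 3 counts.

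Over all 5 lists of other cardiac lineage factors, 33 of 60 genes were tested, of which 16 were lower, 4 higher and 13 past neither side, with a median log2 fold change of -0.27. Among all tested genes 25.7% were lower and 25.5% higher. With library size alone as the scaling the split was 12 lower and 6 higher, and that scaling raised the median of all tested genes to 0.17. In DESeq2 it was 14 lower and 2 higher, and Gata2, Hdac5, Hdac7 and Shox2 did not pass there. On log2(FPKM + 1) values it was 12 lower and 5 higher, with an all-gene median of 0.13. At the threshold of the study it was 7 lower and 0 higher, against 10.3% of all tested genes lower. Under library size alone the median of the 10 members was -0.86, and the same 9 factors were lower.

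Genes that cardiac lineage factors are known to control, or signals that act with them, were lower in 9 of 14 tested cases and higher in 2, with a median of -0.59. Of all tested genes 25.7% were lower and 25.5% higher. Gja1, which encodes connexin 43, went from 153 ± 6.11 to 104 ± 2.82 CPM, a log2 fold change of -0.56 (SE 0.05, edgeR adjusted p of 7.68e-06). The BMP ligands Bmp2 and Bmp4, signals that induce several of these factors, were at -1.34 (SE 0.20, adjusted p of 0.000298) and -0.53 (SE 0.07, adjusted p of 0.000163). Aldh1a2, the retinoic acid enzyme of the epicardium, was at -0.64 (SE 0.05, adjusted p of 7.51e-06). Nppb, the gene of B-type natriuretic peptide and a target of GATA4 and MEF2, had 2, 1 and 3 counts in GFP and 28, 21 and 13 counts in CRE libraries (adjusted p of 0.000565), so that its GFP level lay at or under 3 counts. The other 6 genes past the threshold were 5 lower and 1 higher, the last being Ccn2, a matrix signal and YAP target, named here after its values were seen (0.95, SE 0.14, adjusted p of 0.000324). Among those 5 was Postn, a marker of myofibroblasts, also named after its values were seen. It went from 2008 ± 71.9 to 583 ± 18.1 CPM (-1.79, SE 0.04, adjusted p of 1.33e-08).

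Many markers of other cells of the heart, and of fibroblasts themselves, were lower in CRE libraries as well. The shares over all tested genes were 25.7% lower and 25.5% higher. Of 12 endothelial markers 11 were lower, with summed levels from 417 to 462 CPM in GFP and from 199 to 230 CPM in CRE libraries, led by Cdh5 (142 to 80.1 CPM) and Pecam1 (73.4 to 39.6 CPM). Among 12 markers of smooth muscle cells and pericytes 8 were lower and 1 higher, with sums from 3035 to 3516 CPM and from 1767 to 1891 CPM, led by Acta2, which is also induced in myofibroblasts (1294 to 507 CPM), and Pdgfrb (973 to 783 CPM). Of 8 macrophage markers 5 were tested and 3 were lower, with sums from 57.8 to 65.99 CPM and from 34.3 to 37.7 CPM, led by Cd14 (28.1 to 13.4 CPM) and Lyz2 (23.5 to 14.6 CPM). Adgre1 was the remaining lower marker (3.72 to 1.55 CPM). Csf1r (3.46 and 3.35 CPM) and Cd68 (2.85 and 2.11 CPM) did not pass. The 3 untested markers had at most 10 counts in any library. Of 12 fibroblast markers 10 were lower, with sums from 34126 to 35045 CPM and from 22162 to 23584 CPM, and Col1a1 fell to 8248 ± 412 CPM. The summed level of the 15 cardiomyocyte markers was higher in CRE libraries, but single markers went both ways near the floor. Ttn had 0 to 3 counts in GFP and 8 to 15 in CRE libraries, and Tnnt2 had 8 to 10 and 7 to 9. Only Myl4 could be tested (0.90, SE 0.33, adjusted p of 0.0401), and its call ended with any 1 library left out, in DESeq2 and with the replicate block. In bulk RNA, fewer cells of a type and less RNA per cell cannot be told apart, and the part of these markers in the differences of the factors was not tested.

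Set against the fibroblast surface markers Pdgfra and Thy1, 2 denominators picked after their values were seen, the factors differed in how far they stood apart. Thy1 itself did not pass (26.4 ± 2.02 and 24.7 ± 0.56 CPM), and Tbx20 was at 1512% ± 82.6 of its CPM in GFP and 433% ± 23.8 in CRE libraries (SD, n = 3). Pdgfra was lower in CRE libraries (408 ± 77.4 and 223 ± 18.9 CPM, edgeR adjusted p of 0.000161), and relative to it Tbx20 was at 99.2% ± 11.1 and 48.2% ± 5.92. Tcf21 was at 9.14% ± 2.28 and 4.69% ± 0.80 of Pdgfra, and Wt1 at 0.90% ± 0.16 and 0.37% ± 0.02, both without overlap. Hand2 (8.12% ± 1.24 and 6.36% ± 0.86) did not overlap either, by a narrow margin, while Tbx18 (19.0% ± 3.19 and 18.9% ± 1.27), Gata4 (17.0% ± 3.39 and 19.9% ± 1.79), Gata6 (16.7% ± 3.31 and 20.9% ± 1.45), Tbx5 (1.16% ± 0.32 and 1.17% ± 0.19) and Meox1 (1.31% ± 0.49 and 0.90% ± 0.31) did. Relative to Thy1, Tbx18 (289% ± 16.7 and 170.5% ± 0.84), Gata4 (257% ± 19.8 and 179% ± 9.45), Gata6 (252% ± 22.7 and 188% ± 8.63) and Hand2 (123% ± 2.88 and 57.4% ± 8.02) were all lower in CRE libraries without overlap. The means of Gata4 and Gata6 thus went in opposite directions with the 2 denominators. Mef2c was higher relative to Pdgfra in CRE libraries (1.77% ± 0.18 and 2.87% ± 0.13, no overlap) but not relative to Thy1 (27.1% ± 3.43 and 25.8% ± 1.397, overlapping), so that its direction depended on the denominator.

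**Figure D5:**
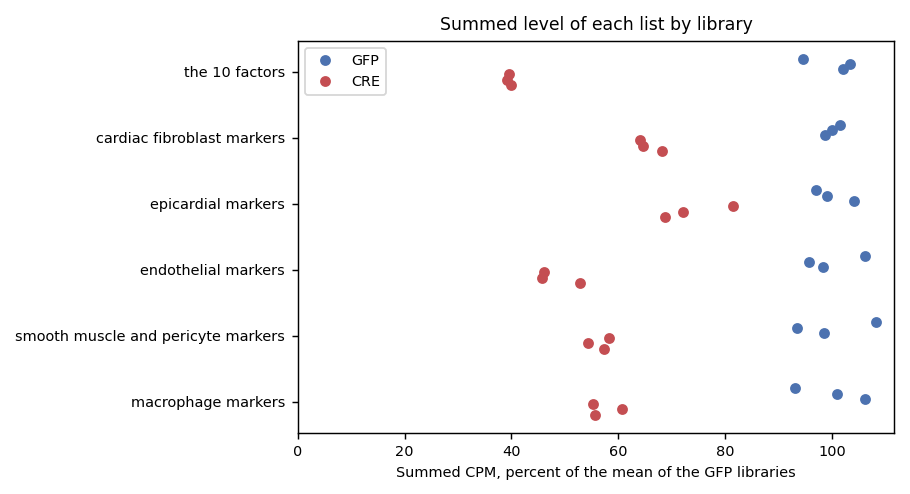
Summed CPM of the 10 factors and of 5 marker lists in each library, as percent of the mean of the GFP libraries (points: libraries, blue GFP, red CRE, axis from 0). The CRE libraries lie below the GFP libraries in the lists shown, while the cardiomyocyte markers, nearly all too low to test and left out here, had CRE sums at 151% to 179% of the GFP mean.

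Genes on the opposite strand overlap Tbx18 (D030062O11Rik), Gata6 (1010001N08Rik), Hand2 (Hand2os1), Tcf21 (Gm10824) and Meox1 (Gm11551) in GENCODE M21. Whether counting used the strand is not given in the sources used here, so reads of these partners, which have no row in the table, may be among the counts of those 5 factors. Tbx20, Tbx5, Gata4, Wt1 and Mef2c have no overlapping gene in that annotation.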

How the data were processed

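RNA-seq was performed on 6 libraries of mouse cardiac fibroblasts (GFP, 3; CRE, 3), with groups and replicate numbers read from sample titles. The study's methods state that reads were trimmed with Trimmomatic, mapped to GRCm38 with HISAT2 and counted per gene with HTSeq-count, FPKM values came from Cufflinks, and DESeq was used for testing. Tool versions and the strand setting are not given in the sources used here, and the labels and the methods name different extraction and library kits. The authors deposited raw counts and FPKM per gene and library in 1 table of 22063 genes. The log2 fold change, p-value and false discovery rate the authors deposited beside them belong to their own comparison and were not used.

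The counts were fitted with edgeR 4.0.16 in R 4.3.3 (filterByExpr, minimum count 10, minimum total 15, TMM scaling, two-sided quasi-likelihood test of CRE against GFP, Benjamini-Hochberg adjustment over the 12862 tested genes). Each SE is the size of the log2 change over the root of its F value. Total counts, 17002126 to 20343590 per library, limit the precision of low genes, and limits from counts cover counting error only. Coordinates and overlaps came from GENCODE M21, in which 21973 genes (99.6%) were found, and promoters from RefSeq (GRCm38.p6).

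The members and the gene lists were chosen with earlier results of these data known. Named genes are the 10 members, Tet3, the first 25 genes past the threshold on the lists of other factors and targets, in list order, the 5 genes most correlated with Tbx20, and the 2 most abundant genes of each cell type list. Others were named after their values were seen. Alternatives were other scalings (RLE, library size, upper quartile), other filters, DESeq2 1.42.0, limma 3.58.1 on voom values or on log2 of the deposited FPKM plus 1 or 0.1, a replicate block, leaving out single libraries, and the threshold of the study. No pair of libraries in a group agreed within sampling noise. Figures were drawn with matplotlib 3.10.9.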

Additional observations from a re-analysis of the deposited data

How the results depend on the processing

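The 16 other fits gave 160 log2 fold changes for the members, of which 157 kept their direction and their side of the threshold. Those of Mef2c turned to 0.19 on log2(FPKM + 1) values and to 0.26 on log2(FPKM + 0.1) values, past the threshold in neither, and Tbx5, at -0.42, no longer passed on the latter. The count of lower members was 9 in every fit except that on log2(FPKM + 0.1), where it was 8, and 8 at the threshold of the study. Changes ran from -1.97 to -1.69 for Tbx20, from -1.87 to -1.53 for Tcf21 and from -2.12 to -0.90 for Wt1. The changes of Tbx5 and Meox1 came nearest to 0 on log2(FPKM + 1) values, at -0.26 and -0.71. Of other cardiac lineage factors, 20 passed, 7 did at the threshold of the study (all lower, against 16 lower and 4 higher), and 16 to 18 did with 1 library left out. Of target genes 11 passed, with 8 to 12 over the other settings. Hdac7 turned to 0.020 with library size alone. Tet3 lay between -0.78 and -0.55. Per kilobase of annotated exons, 3 of 10 members kept their place among GFP levels. Low counts limit Wt1, Tbx5 and Meox1 most.

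The replicate numbers are shared between groups, but same-numbered libraries deviated from their group means with r of 0.061, 0.246 and -0.021 over 12206 genes, so that the numbers were not taken as pairs. With the replicate block 9 members, 18 other factors and 12 target genes passed, and the log2 fold change of Tet3 was -0.71. CRE replicates 1 and 3 did not correlate best with their own number.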

Other observations

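Counts over the whole families to which members belong, members included, were as follows. Of all 1080 tested rows with a transcription factor family, 26.5% were lower and 19.3% higher in CRE libraries. Of the 54 tested rows of the bHLH family 23 were lower and 7 higher in CRE libraries (edgeR adjusted p under 0.05), and of the 56 tested homeobox rows 23 were lower and 6 higher. Of the 11 tested rows of the GATA zinc finger family, which holds Gata4 and Gata6, 9 were lower and 1 higher. Of the 8 tested T-box rows 3 were lower, and of the 4 tested rows of the SRF family, which holds Mef2c, 1 was lower and 1 higher. In the C2H2 zinc finger family, with 483 tested rows, the directions were nearly even, with 81 lower and 85 higher. The members in these counts were chosen on the same values, and no test of the difference between families was run.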
